A study of Mus musculus with 15 samples.

Results

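Ribosome biogenesis factors are the proteins that transcribe, modify, cut and package ribosomal RNA. A list of 44 of their genes was followed in mouse embryonic stem cells with a knockout of Taf5l, Taf6l or Myc. Members were taken by gene symbol from the authors' table of estimated counts, and 43 of the 44 have a row there, out of 37310 genes in all; Noc2l was not analysed here. They comprise 7 genes of the small nucleolar ribonucleoproteins (snoRNPs), 13 of 60S assembly, 12 of 40S assembly, 6 of RNA polymerase I transcription and 5 nucleolar proteins with several roles. All cells were of the J1 line, grown in serum with LIF. One experiment held the genotypes Taf5l-KO, Taf6l-KO and their wild type (WT-Taf), and another held cMyc-KO (written Myc-KO here) and its own wild type (WT-Myc), with 3 libraries per group and 15 in all. The labels give no clone, promoter or deletion for the knockouts and do not say whether replicates were separate cultures, so p-values rest on a spread that could be technical only. All Myc-KO libraries carry the code C5 in their descriptions, and the labels do not say whether it names a clone.

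Ribosome production starts in the nucleolus, where RNA polymerase I transcribes a long precursor of the 18S, 5.8S and 28S ribosomal RNAs. Box C/D snoRNPs place methyl groups on the precursor and box H/ACA snoRNPs turn uridine into pseudouridine. Large sets of assembly factors then fold and trim the precursor into the 40S and 60S subunits, and MYC is known to bind and activate many of the genes involved. TAF5L and TAF6L are subunits of SAGA, a coactivator complex that acetylates histones and works at many promoters.

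Total counts per library ranged from 14935631 to 21767884 in the Taf experiment and from 17922864 to 27650813 in the Myc experiment. Every member had at least 550 counts in every library, and all 43 passed the filter on low counts. Each knockout held less RNA of its targeted gene than its wild type, by log2 fold changes of -1.02 for Taf5l, -1.99 for Taf6l and -1.19 for Myc. Myc itself was at log2 fold changes of -0.69 in Taf5l-KO and -0.83 in Taf6l-KO, and both fell by the edgeR test. Its paralogue Mycn rose in both, from 117 ± 2.14 CPM (counts scaled to a common library size with TMM; SD, n = 3) in WT-Taf to 150.4 ± 3.09 in Taf5l-KO and 148 ± 2.19 in Taf6l-KO, log2 fold changes of 0.37 (edgeR adjusted p = 8.28e-07) and 0.35 (edgeR adjusted p = 1.0e-06), and was not called in Myc-KO (-0.15, edgeR adjusted p = 0.0533). In Myc-KO replicate 3 counts stood apart from those of replicates 1 and 2 (the chi-square divided by its degrees of freedom was 36.4 against replicate 1 and 26.3 against replicate 2, and 5.07 between those), so results of the Myc experiment are also given without it. The 6 embryonic stem cell markers examined were present in every library, with summed levels of 3603 to 3715 CPM in Taf5l-KO, 3570 to 3655 in Taf6l-KO and 4044 to 4111 in WT-Taf, and, in the Myc experiment, 5599 to 5899 for the knockout and 5041 to 5236 for its wild type. The 6 feeder fibroblast markers, among them Col3a1 and Postn at 0 in both Taf knockouts, summed to between 4.57 and 10.6 CPM. The marker sums differed between groups, and their part in the results below was not tested. In bulk RNA, fewer cells of a type and less RNA per cell cannot be told apart.

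More of the members fell than rose in each knockout, by small amounts. A gene was called where edgeR's quasi-likelihood test gave a Benjamini-Hochberg adjusted p under 0.05 over all genes tested. In Taf5l-KO 15 of 43 members fell and 3 rose, while 15.9% of the 15743 genes tested fell and 17.4% rose. In Taf6l-KO 21 fell and 8 rose, beside 18.2% and 19.1% of all genes tested. In Myc-KO 15 fell and 1 rose, beside 19.5% and 15.2% of 14563 genes. The members' median log2 fold change was -0.07 in Taf5l-KO, -0.08 in Taf6l-KO and -0.12 in Myc-KO, and the median of all genes tested lay at 0.00, 0.02 and -0.00. All 3 knockout libraries lay below all 3 wild-type libraries for 23 members in Taf5l-KO (22.0% of all genes tested), 26 in Taf6l-KO (23.5%) and 20 in Myc-KO (26.7%). They lay above them for 3 members in Taf5l-KO (22.7% of all genes tested), 9 in Taf6l-KO (25.4%) and 3 in Myc-KO (22.9%).

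Part of the Taf6l-KO count depends on the scaling. When counts were scaled by library totals alone and not by TMM, 8 members fell and 9 rose in Taf6l-KO, the members' median was -0.01 and the median of all genes moved to 0.09. In Myc-KO 20 members fell and 2 rose without Myc-KO replicate 3, and all 16 of the original calls were among these, whereas without WT-Myc replicate 2 only 9 fell and none rose. Deviations of Myc-KO replicate 3 from its group mean correlated with those of WT-Myc replicates 1 and 2 (0.411 and 0.194). Those of Myc-KO replicates 1 and 2 correlated with WT-Myc replicate 3 (0.472 and 0.431). Leaving out Myc-KO replicate 3 alone leaves this shared deviation unbalanced between the groups, and the added calls cannot be told apart from it. In simulated counts with known changes the procedure recovered 84% of 1.25-fold changes in the Taf5l-KO comparison, 90% in Taf6l-KO and 10% in Myc-KO, so the numbers of calls in the Taf and Myc experiments are not compared with each other. Only 200 genes were changed in the simulations, far fewer than the 2847 called lower in Myc-KO. An adjusted p under 0.05 was thus harder to reach there, and these percentages can be too low for the data. Unchanged genes made up 20 of 121 calls in the Myc-KO simulation, 11 of 160 in Taf5l-KO and 12 of 162 in Taf6l-KO. Each is a larger share than the threshold of 0.05, and the share in Myc-KO was the largest.

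**Figure D1:**
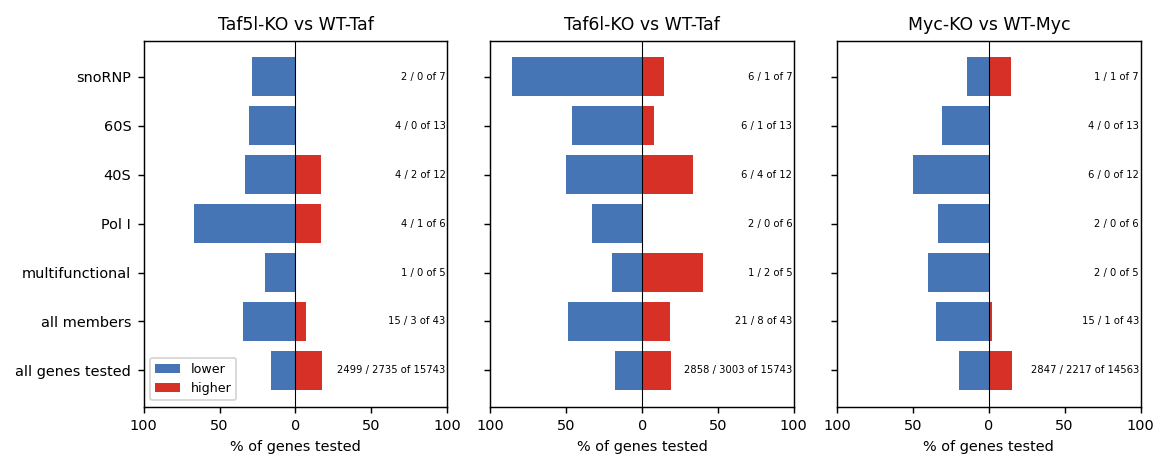
Percentage of genes called lower (bars to the left) and higher (bars to the right) in each knockout against its own wild type, by class of member, for all members and for all genes tested; the numbers give lower / higher of the genes in the class. The snoRNP members in Taf6l-KO, with 6 lower and 1 higher of 7, and the RNA polymerase I members in Taf5l-KO, with 4 lower and 1 higher of 6, have the longest bars to the left; with library totals 1 of the 6 snoRNP falls in Taf6l-KO was still called.

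**Figure D2:**
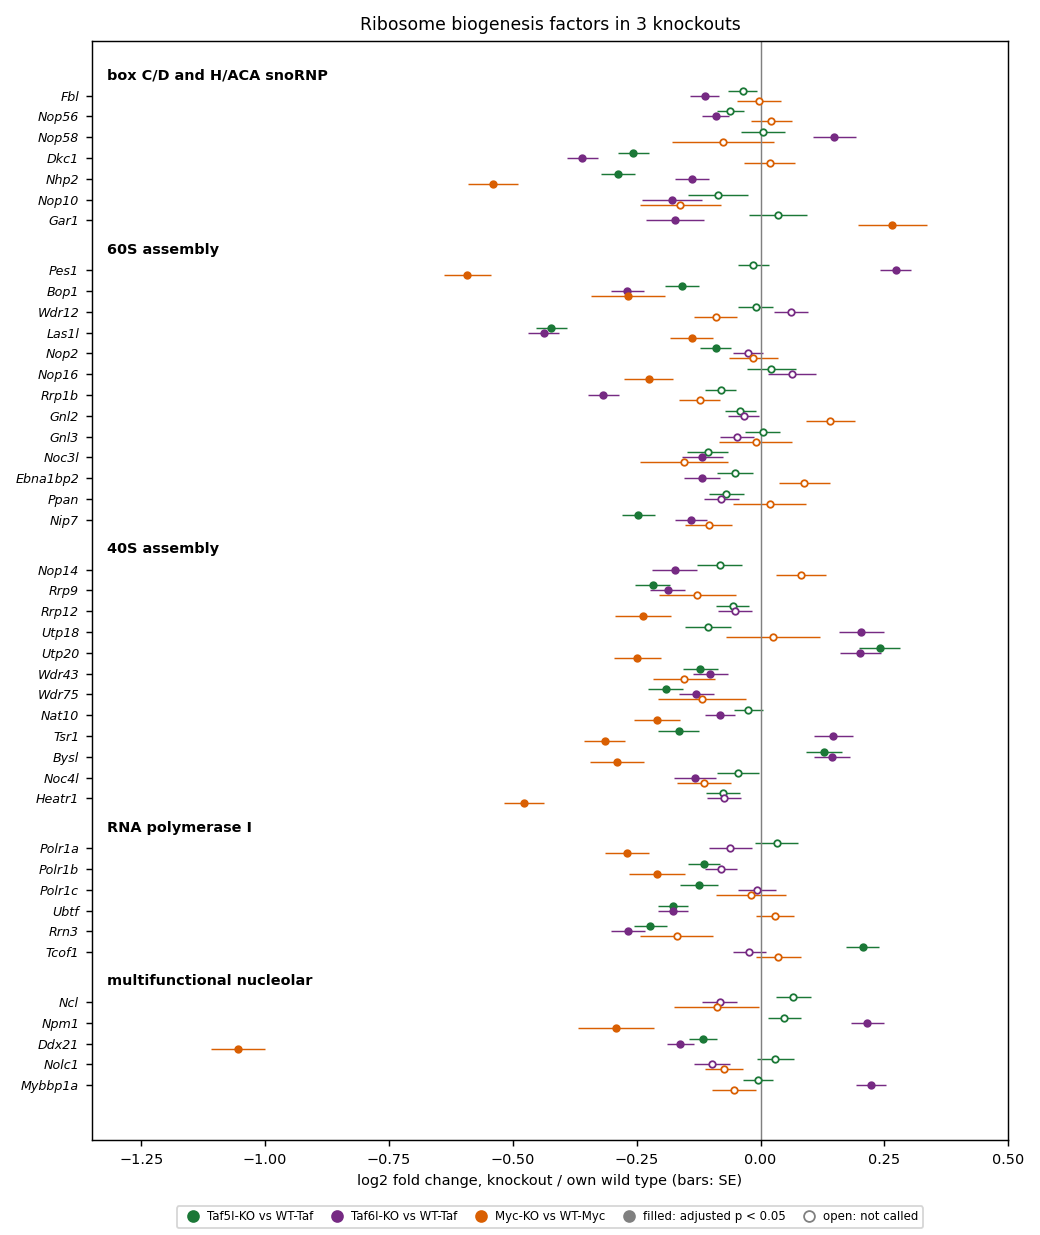
Log2 fold change of each of the 43 members (rows, grouped by class) in Taf5l-KO, Taf6l-KO and Myc-KO against the own wild type; bars are standard errors, and filled points have an adjusted p under 0.05. Ddx21 in Myc-KO, at -1.05, lies farthest from 0, and the effects in the Taf knockouts lie between -0.44 and 0.27.

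All 7 snoRNP members were called in Taf6l-KO, where 6 fell and 1 rose, while 2 fell in Taf5l-KO, and 1 fell and 1 rose in Myc-KO, with median log2 fold changes of -0.14, -0.06 and -0.00. With library totals 1 of the 6 falls in Taf6l-KO, that of Dkc1, was still called. Dkc1, the pseudouridine synthase of the H/ACA particle, read 281, 279.5 and 295 CPM in the 3 Taf5l-KO libraries, 263, 268 and 266 in Taf6l-KO and 332, 346 and 344 in WT-Taf. Every knockout library lay below every wild-type library, with log2 fold changes of -0.26 ± 0.0312 (SE; edgeR adjusted p = 2.16e-05) in Taf5l-KO and -0.36 ± 0.0312 (SE; edgeR adjusted p = 6.22e-07) in Taf6l-KO. In the Myc experiment Dkc1 read 300.1, 298 and 328 CPM in Myc-KO and 313, 302 and 299 in WT-Myc, which overlap, and the log2 fold change was 0.02 ± 0.0515 (SE; edgeR adjusted p = 0.811).

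Nhp2, a core protein that holds the H/ACA guide RNA, fell in all 3 knockouts. It read 157, 156 and 149 CPM in Taf5l-KO, 173, 176 and 164 in Taf6l-KO and 190.1, 185 and 189 in WT-Taf. In the other experiment the values were 191, 189 and 181 CPM in Myc-KO and 260.5, 269 and 284 in WT-Myc. No knockout library reached its wild type, and the log2 fold changes were -0.29 ± 0.0349 (SE; edgeR adjusted p = 2.14e-05) in Taf5l-KO, -0.14 ± 0.0345 (SE; edgeR adjusted p = 0.00605) in Taf6l-KO and -0.54 ± 0.0504 (SE; edgeR adjusted p = 0.000198) in Myc-KO. With library totals the Taf6l-KO value for Nhp2 was -0.07 with an edgeR adjusted p of 0.157, so that call ended.

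Gar1 and Nop10 complete the H/ACA core. Gar1 read 73.5, 75.0 and 85.3 CPM in Myc-KO and 65.9, 62.8 and 65.7 in WT-Myc, and was the one member that rose there, by 0.27 ± 0.0693 (SE; edgeR adjusted p = 0.0206). All 3 Myc-KO libraries were above all WT-Myc libraries, with replicate 3 highest, and without it the log2 fold change was 0.22. Without any one of the WT-Myc libraries the Gar1 call ended, with edgeR adjusted p values of 0.0561, 0.0867 and 0.0559. In the Taf experiment Gar1 read 36.9, 43.1 and 41.4 CPM in Taf5l-KO, 34.2, 35.4 and 35.8 in Taf6l-KO and 41.5, 39.8 and 37.2 in WT-Taf. The Taf5l-KO value of 0.03 was not called. The Taf6l-KO value was -0.17 ± 0.0584 (SE; edgeR adjusted p = 0.0316), with every Taf6l-KO library below the wild type. Alternative settings ended this Gar1 call in 10 of 18 cases. Nop10 read 77.8, 83.6 and 79.9 CPM in Taf6l-KO and 90.5, 89.4 and 93.2 in WT-Taf, without overlap, and the log2 fold change was -0.18 ± 0.0606 (SE; edgeR adjusted p = 0.0318), a call that 9 of 18 alternative settings ended.

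Fbl, the methyltransferase of the box C/D particle, read 239, 239.5 and 236 CPM in Taf5l-KO, 225, 229.8 and 223 in Taf6l-KO and 243, 240.2 and 249.6 in WT-Taf. Both knockouts lay below the wild type, and the difference was called in Taf6l-KO at -0.11 ± 0.0291 (SE; edgeR adjusted p = 0.0072) but not in Taf5l-KO at -0.04 ± 0.0292 (SE; edgeR adjusted p = 0.388). Fbl read 337, 340.4 and 355 CPM in Myc-KO and 343, 336 and 356 in WT-Myc, with overlap and a log2 fold change of -0.00. Its scaffold partners differed in direction in Taf6l-KO, where Nop56 was at -0.09 ± 0.0272 (SE; edgeR adjusted p = 0.0169) and Nop58, at 511, 506 and 519 CPM against 459.7, 469.5 and 456, was at 0.15 ± 0.0441 (SE; edgeR adjusted p = 0.0158). All 3 Taf6l-KO libraries exceeded the wild type for Nop58. Library totals ended the calls of Fbl and Nop56 in Taf6l-KO (edgeR adjusted p = 0.349 and 0.650), and 6 alternative settings ended that of Nop58.

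Among the 13 members of 60S assembly, 4 fell and 0 rose in Taf5l-KO, 6 fell and 1 rose in Taf6l-KO, and 4 fell and 0 rose in Myc-KO; the medians were -0.07, -0.08 and -0.10. With library totals 3 of the 6 falls in Taf6l-KO were still called. Las1l (ENSMUSG00000057421), a subunit of the endonuclease that cuts the internal spacer of the precursor, changed more than any other member in both Taf knockouts. It read 103, 102 and 103 CPM in Taf5l-KO, 100.5, 101 and 103 in Taf6l-KO and 139, 140.5 and 134 in WT-Taf. The knockout libraries lay in a narrow range well under the wild type, with log2 fold changes of -0.42 ± 0.0316 (SE; edgeR adjusted p = 2.12e-07) and -0.44 ± 0.0314 (SE; edgeR adjusted p = 9.94e-08). In Myc-KO Las1l read 128, 130.3 and 131 CPM against 144, 142 and 142 in WT-Myc, without overlap, at -0.14 ± 0.0433 (SE; edgeR adjusted p = 0.0404), and 12 of 14 alternative settings ended that call.

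Pes1 and Bop1 encode subunits of the PeBoW complex, which acts in 28S and 5.8S maturation, and they went separate ways in the Taf experiment. Pes1 read 194, 186 and 188 CPM in Taf5l-KO, 225, 237 and 233 in Taf6l-KO and 193, 189 and 193 in WT-Taf. Taf5l-KO overlapped the wild type (-0.01), and all Taf6l-KO libraries were above it, at 0.27 ± 0.0313 (SE; edgeR adjusted p = 1.02e-05). In the Myc experiment Pes1 read 251, 239 and 232 CPM in Myc-KO and 357, 360.3 and 370.4 in WT-Myc, with no overlap and a log2 fold change of -0.59 ± 0.0469 (SE; edgeR adjusted p = 9.48e-05), or -0.55 without Myc-KO replicate 3.

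Bop1 read 138, 133 and 133 CPM in Taf5l-KO, 125, 122 and 127 in Taf6l-KO and 147, 148 and 156 in WT-Taf, and both knockouts lay wholly below the wild type. Its log2 fold changes were -0.16 ± 0.0342 (SE; edgeR adjusted p = 0.00254) and -0.27 ± 0.0342 (SE; edgeR adjusted p = 2.77e-05). In Myc-KO it read 165, 160.2 and 136 CPM against 180.1, 186 and 190.0, again without overlap, at -0.27 ± 0.0750 (SE; edgeR adjusted p = 0.0272). Replicate 3 was the lowest of these, and the value without it was -0.17; 8 of 14 alternative settings ended the Bop1 call in Myc-KO. Wdr12, the third subunit of PeBoW, was called in no knockout, with log2 fold changes of -0.01 in Taf5l-KO, 0.06 in Taf6l-KO and -0.09 in Myc-KO.

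Nip7, a factor in the processing of the ribosomal RNA precursor, read 102, 107 and 101 CPM in Taf5l-KO, 109.8, 113 and 111 in Taf6l-KO and 121, 124 and 122 in WT-Taf. Both knockouts were below the wild type without overlap, at -0.25 ± 0.0330 (SE; edgeR adjusted p = 5.24e-05) and -0.14 ± 0.0326 (SE; edgeR adjusted p = 0.00366), and the second call ended with library totals (-0.07, edgeR adjusted p = 0.133). Rrp1b, a nucleolar protein found on 60S precursors, read 163, 165 and 167 CPM in Taf5l-KO, 138, 140.0 and 142 in Taf6l-KO and 176, 170.3 and 178 in WT-Taf. It was called in Taf6l-KO at -0.32 ± 0.0306 (SE; edgeR adjusted p = 1.84e-06) and missed the threshold in Taf5l-KO at -0.08 ± 0.0305 (SE; edgeR adjusted p = 0.0555), although every library of both knockouts lay below the wild type. On the FPKM scale, which implies a length of only 274 bases for this gene, the Taf6l-KO value of Rrp1b was -0.16 and was not called (limma adjusted p = 0.0757). Of the remaining 60S members, Nop2 was called lower in Taf5l-KO (-0.09), Noc3l and Ebna1bp2 in Taf6l-KO (both -0.12) and Nop16 in Myc-KO (-0.23). Gnl2, Gnl3 and Ppan were called in none. Among 18 alternative settings, 11 ended the Nop2 call, 9 that of Noc3l and 6 that of Ebna1bp2. The Nop16 call ended under 2 of 14.

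Calls among the 12 members of 40S assembly went in both directions in each Taf knockout. In Taf5l-KO 4 fell and 2 rose, in Taf6l-KO 6 fell and 4 rose, and in Myc-KO 6 fell, 0 rose and 6 were not called, with medians of -0.08, -0.08 and -0.18. With library totals 1 of the 6 falls in Taf6l-KO, that of Rrp9, was still called. Utp20, a large scaffold of the small-subunit processome, read 394, 359.5 and 388 CPM in Taf5l-KO, 389, 359 and 363 in Taf6l-KO and 312, 330.2 and 324 in WT-Taf. All knockout libraries exceeded all wild-type libraries, at 0.24 ± 0.0415 (SE; edgeR adjusted p = 0.000461) and 0.20 ± 0.0414 (SE; edgeR adjusted p = 0.00155). In the Myc experiment Utp20 read 365, 364 and 391 CPM in Myc-KO and 446, 452 and 431 in WT-Myc, so that each Myc-KO library was lower, at -0.25 ± 0.0469 (SE; edgeR adjusted p = 0.00522).

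Bysl, which acts late in 40S maturation, had the same directions as Utp20. It read 112, 105 and 106 CPM in Taf5l-KO, 106, 113 and 108 in Taf6l-KO and 98.9, 98.3 and 98.3 in WT-Taf, with log2 fold changes of 0.13 ± 0.0366 (SE; edgeR adjusted p = 0.0151) and 0.14 ± 0.0363 (SE; edgeR adjusted p = 0.00645) and no overlap with the wild type. Of 18 alternative settings, 6 ended the Taf5l-KO call of Bysl and 3 the Taf6l-KO call. Bysl read 107, 112 and 105 CPM in Myc-KO against 126, 133 and 138 in WT-Myc, with all Myc-KO libraries lower, at -0.29 ± 0.0547 (SE; edgeR adjusted p = 0.00517).

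Heatr1, a processome component that is also needed for ribosomal DNA transcription, was called in Myc-KO and in neither Taf knockout. It read 330.5, 326 and 334 CPM in Myc-KO and 470.2, 459 and 450.5 in WT-Myc, 2 narrow and separate ranges, at -0.48 ± 0.0402 (SE; edgeR adjusted p = 0.000124). In the Taf experiment Heatr1 read 449.7, 451 and 474 CPM in Taf5l-KO, 478, 452 and 446 in Taf6l-KO and 476, 484 and 489.6 in WT-Taf, with log2 fold changes of -0.08 and -0.07. Tsr1, a GTPase-like factor of late 40S particles, read 179.7, 182 and 182 CPM in Myc-KO and 229, 220.5 and 227 in WT-Myc, without overlap, at -0.31 ± 0.0415 (SE; edgeR adjusted p = 0.000983).

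Rrp9, the U3 snoRNP protein of the processome, read 101, 101 and 96.4 CPM in Taf5l-KO, 99.5, 105 and 100.3 in Taf6l-KO and 119, 114 and 114 in WT-Taf. Every knockout library was below the wild type, at -0.22 ± 0.0354 (SE; edgeR adjusted p = 0.000298) and -0.19 ± 0.0351 (SE; edgeR adjusted p = 0.000759). On the FPKM scale both values shrank to -0.03 and -0.05 and were not called (limma adjusted p = 0.696 and 0.542). The FPKM imply a length of only 118 bases for Rrp9, which limits that scale here. Wdr75, a member of the early-acting UtpA complex, read 220.4, 236 and 244 CPM in Taf5l-KO, 245, 245 and 241 in Taf6l-KO and 268, 265 and 267 in WT-Taf. It too was lower in all knockout libraries, at -0.19 ± 0.0353 (SE; edgeR adjusted p = 0.000811) and -0.13. Nop14, a processome scaffold protein, read 88.8, 90.2 and 86.5 CPM in Taf6l-KO and 96.0, 97.5 and 106 in WT-Taf, without overlap, at -0.17 ± 0.0454 (SE; edgeR adjusted p = 0.00803). Library totals ended the Taf6l-KO calls of Wdr75 (edgeR adjusted p = 0.238) and Nop14 (0.0942). Wdr43 was called lower in Taf5l-KO (-0.12) and Taf6l-KO (-0.10), and Noc4l in Taf6l-KO (-0.13). The RNA acetyltransferase Nat10 was called lower in Taf6l-KO (-0.08) and Myc-KO (-0.21), and Rrp12 in Myc-KO (-0.24). Among 18 alternative settings, 14 ended the Taf6l-KO call of Nat10, 8 that of Noc4l and 8 that of Wdr43. The Wdr43 call in Taf5l-KO ended under 6 of 18. In Myc-KO 4 of 14 ended the Nat10 call and 5 the Rrp12 call.

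The 6 RNA polymerase I members held 4 that fell and 1 that rose in Taf5l-KO, while 2 fell and 0 rose in each of Taf6l-KO and Myc-KO. Their medians were -0.12, -0.07 and -0.09, and both falls in Taf6l-KO were also called with library totals. Rrn3 (TIF-IA), the factor that makes the polymerase competent to start, read 365, 388 and 400.2 CPM in Taf5l-KO, 369, 375 and 374 in Taf6l-KO and 442, 451 and 452 in WT-Taf. Each knockout library was well below the wild type, at -0.22 ± 0.0341 (SE; edgeR adjusted p = 0.000176) and -0.27 ± 0.0340 (SE; edgeR adjusted p = 2.84e-05). In Myc-KO it read 299, 293 and 341 CPM against 361, 364 and 324; replicate 3 of each group made the ranges overlap, and the difference of -0.17 ± 0.0735 (SE; edgeR adjusted p = 0.115) was not called.

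Ubtf encodes UBF, which binds along active ribosomal DNA. Its levels were 244, 247 and 248 CPM in Taf5l-KO, 248, 251 and 239 in Taf6l-KO and 281, 272 and 282 in WT-Taf. The knockouts did not overlap the wild type, and the log2 fold changes were -0.18 ± 0.0305 (SE; edgeR adjusted p = 0.000485) and -0.18 ± 0.0304 (SE; edgeR adjusted p = 0.000372). In the Myc experiment Ubtf read 333, 337 and 336 CPM in Myc-KO and 328, 330.1 and 327 in WT-Myc, a difference of 0.03 that was not called although all Myc-KO libraries were the higher ones. Tcof1 encodes treacle, a partner of the polymerase in the nucleolus. It read 365, 362 and 366 CPM in Taf5l-KO, 302, 320.0 and 311 in Taf6l-KO and 304, 321 and 323 in WT-Taf, so only Taf5l-KO stood clear of the wild type, at 0.21 ± 0.0331 (SE; edgeR adjusted p = 0.000259).

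In Myc-KO the called members of this class were catalytic subunits of the polymerase. The largest subunit, Polr1a, read 172, 177 and 168 CPM in Myc-KO and 202, 210.5 and 211 in WT-Myc, without overlap, at -0.27 ± 0.0450 (SE; edgeR adjusted p = 0.00295), and was not called in Taf5l-KO (0.03) or Taf6l-KO (-0.06). The next-largest, Polr1b, read 165, 159 and 147 CPM in Myc-KO and 176, 181 and 187 in WT-Myc, again apart, at -0.21 ± 0.0572 (SE; edgeR adjusted p = 0.0248). Replicate 3 was the lowest Myc-KO library for both, and without it the values were -0.23 for Polr1a and -0.14 for Polr1b. The Polr1b call in Myc-KO ended under 7 of 14 alternative settings, and that of Polr1a under none. In Taf5l-KO, Polr1b (-0.11) and Polr1c (-0.12), a subunit shared with RNA polymerase III, were called lower, and some settings ended both calls.

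Ddx21 (ENSMUSG00000020075), an RNA helicase of the nucleolus that also acts on RNA polymerase II genes, had the largest change of all members. It read 290.3, 294 and 326 CPM in Myc-KO and 637, 638 and 616 in WT-Myc. The groups were far from overlapping, with a log2 fold change of -1.05 ± 0.0549 (SE; edgeR adjusted p = 2.10e-05), and at -1.09 without replicate 3. In the Taf experiment it read 316, 314 and 319.9 CPM in Taf5l-KO, 309, 307 and 304 in Taf6l-KO and 338, 346 and 345 in WT-Taf. These ranges were also separate, with log2 fold changes of -0.12 ± 0.0276 (SE; edgeR adjusted p = 0.00499) and -0.16 ± 0.0276 (SE; edgeR adjusted p = 0.000361).

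Npm1 and Ncl encode the abundant nucleolar proteins nucleophosmin and nucleolin. Npm1 read 2256, 2441 and 2337 CPM in Taf5l-KO, 2598, 2679 and 2620 in Taf6l-KO and 2248, 2307 and 2248 in WT-Taf; Taf5l-KO overlapped the wild type (0.05), and Taf6l-KO was above it in every library, at 0.22 ± 0.0333 (SE; edgeR adjusted p = 0.00016). In the Myc experiment Npm1 read 3018, 3100 and 3644 CPM in Myc-KO and 4173, 4022 and 3755 in WT-Myc. Replicate 3 was the Myc-KO library closest to the wild type, and the log2 fold change was -0.29 ± 0.0776 (SE; edgeR adjusted p = 0.0222) with it and -0.36 without it. Of 14 alternative settings, 7 ended the Npm1 call in Myc-KO. Npm1 has many processed pseudogenes, and reads that match them could be shared between rows.

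Ncl was called in no knockout. It read 2810, 2965 and 3086 CPM in Taf5l-KO, 2674, 2668 and 2649 in Taf6l-KO and 2739, 2894 and 2830 in WT-Taf, at 0.07 ± 0.0361 (SE; edgeR adjusted p = 0.181) and -0.08 ± 0.0361 (SE; edgeR adjusted p = 0.0884). All Taf6l-KO libraries lay below the wild type and Taf5l-KO overlapped it. Myc-KO libraries read 3934, 4074 and 4955 CPM against 4781, 4591 and 4416 in WT-Myc; 2 of the 3 were below every wild-type library and replicate 3 above them all. The fit over the 3 gave -0.09 ± 0.0860 (SE; edgeR adjusted p = 0.464), and Ncl was among the 6 members that were called in addition when replicate 3 was left out. That fit without replicate 3 has the unbalanced shared deviation described above. Mybbp1a, which binds MYB and resides in the nucleolus, rose in Taf6l-KO, and Nolc1, a snoRNP chaperone, was called in none of the knockouts.

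**Figure D3:**
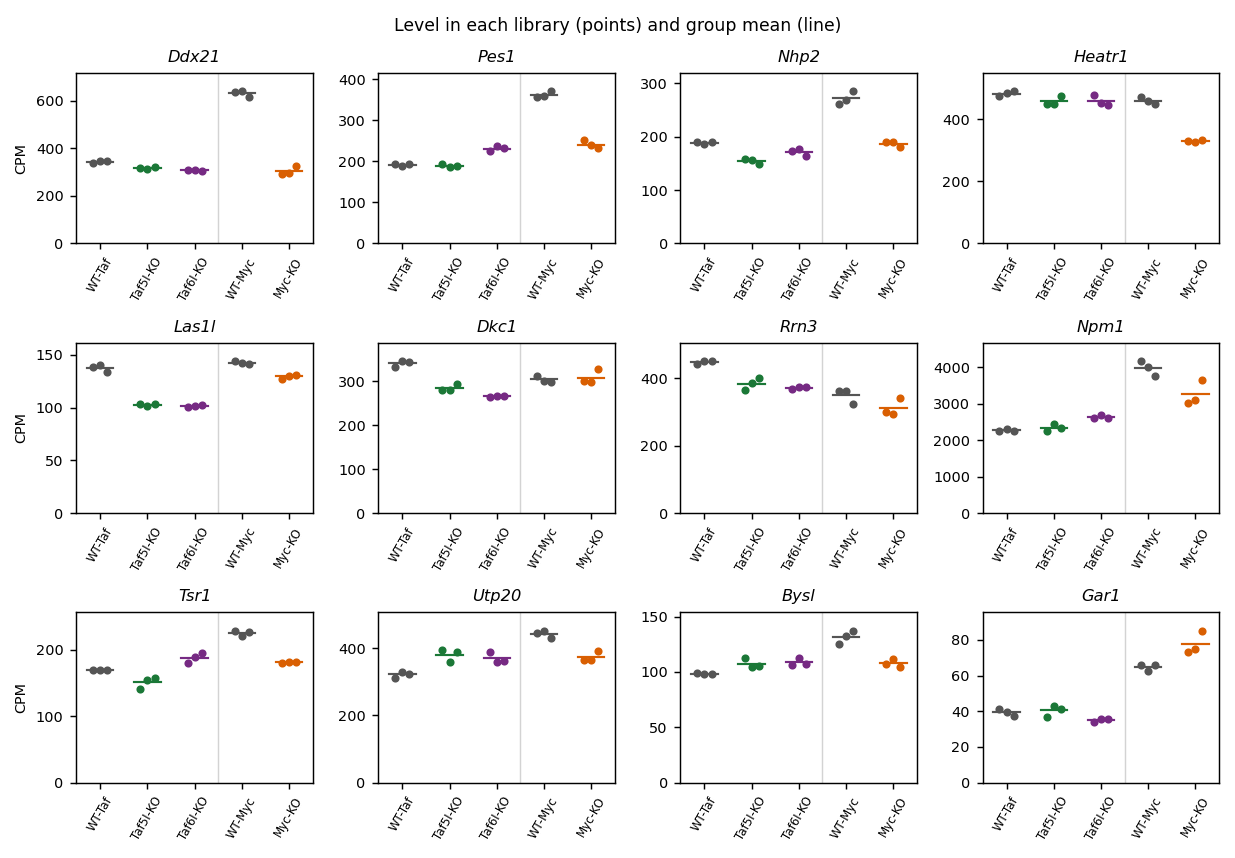
Level in CPM of 12 members in each of the 15 libraries (points) with the group mean (line); the grey line separates the Taf experiment (left) from the Myc experiment (right), and each axis starts at 0. Ddx21, Pes1, Nhp2 and Heatr1 show Myc-KO clearly below WT-Myc, Las1l and Dkc1 show both Taf knockouts below WT-Taf, and Utp20 and Bysl lie above WT-Taf in the Taf knockouts and below WT-Myc in Myc-KO.

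Where a member lies in the genome coincided with part of these differences. Dkc1 and Las1l, the 2 members with the largest falls in Taf6l-KO and 2 of the 3 largest in Taf5l-KO, are the members on the X chromosome. Of the 564 X-linked genes tested, 177 fell and 64 rose in Taf5l-KO and 193 fell and 73 rose in Taf6l-KO, with medians of -0.13 and -0.10. The members' values lay below those medians, while the lower quartiles of the X-linked genes were -0.42 in Taf5l-KO and -0.41 in Taf6l-KO. Dkc1 lay above these quartiles and Las1l close to them. The part of the chromosome in the members' values was not tested. In Myc-KO, 91 of 538 X-linked genes fell and 87 rose.

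Chromosome 11 carries 7 members, and 5 of them rose in Taf6l-KO. Mybbp1a read 830.2, 808 and 802 CPM in Taf5l-KO, 937, 972 and 948 in Taf6l-KO and 799, 816 and 833 in WT-Taf, with Taf6l-KO alone above the wild type, at 0.22 ± 0.0302 (SE; edgeR adjusted p = 5.04e-05). In the Myc experiment it read 1030, 1033 and 971 CPM in Myc-KO and 1023, 1052 and 1072 in WT-Myc, which overlap (-0.05, not called). Utp18, a processome protein, read 89.8, 99.2 and 101 CPM in Taf5l-KO, 116, 118 and 126 in Taf6l-KO and 106, 103 and 104 in WT-Taf. Taf5l-KO libraries lay below the wild type (-0.11, not called) and Taf6l-KO libraries above it, at 0.20 ± 0.0452 (SE; edgeR adjusted p = 0.00269). Utp18 overlapped in the Myc experiment, with 89.8, 94.0 and 112 CPM in Myc-KO and 104, 97.8 and 89.0 in WT-Myc (0.03). Tsr1 read 142, 154 and 157 CPM in Taf5l-KO, 180.5, 189 and 194 in Taf6l-KO and 169, 169.6 and 170.2 in WT-Taf. It was therefore lower than the wild type in every Taf5l-KO library (-0.17 ± 0.0409 SE, edgeR adjusted p = 0.00629) and higher in every Taf6l-KO library (0.15 ± 0.0403 SE, edgeR adjusted p = 0.0103). Tsr1 was not called in either Taf knockout on the FPKM scale (limma adjusted p = 0.345 and 0.245), nor in Taf6l-KO without Taf6l-KO replicate 3 (edgeR adjusted p = 0.0552). The FPKM imply a length of only 404 bases for Tsr1.

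With Pes1 and Npm1 these are the 5 members of chromosome 11 that rose, and Nhp2 and Ubtf are the 2 that fell. Of all 1300 genes tested on chromosome 11, 508 rose and 84 fell in Taf6l-KO, with a median log2 fold change of 0.16. Off chromosomes X, 11 and 14, 17 of 33 members fell and 3 rose in Taf6l-KO, 10 fell and 3 rose in Taf5l-KO, and 10 fell and 1 rose in Myc-KO. Chromosome 14, on which 237 of 483 genes fell and 34 rose in Myc-KO, carries 1 member, the nucleostemin gene Gnl3. Gnl3 read 153, 152 and 178 CPM in Myc-KO and 172, 158 and 157 in WT-Myc, with overlapping libraries and a log2 fold change of -0.01 ± 0.0733 (SE; edgeR adjusted p = 0.935). In the Taf experiment it read 141, 147 and 149.8 CPM in Taf5l-KO, 136, 144 and 143 in Taf6l-KO and 146, 148 and 143 in WT-Taf, also overlapping, at 0.00 and -0.05.

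The direct comparison of Taf6l-KO with Taf5l-KO asks whether the knockouts of the paired SAGA subunits differ, without the wild type they share. Of the 43 members 7 were lower and 9 higher in Taf6l-KO, beside 10.1% and 8.55% of 15743 genes. Their libraries did not overlap for 12 members that were lower and 11 that were higher, which held for 17.5% and 17.2% of all genes. The rise was largest for the chromosome 11 members Tsr1 (0.31 ± 0.0404 SE, edgeR adjusted p = 0.000144), Utp18 (0.31 ± 0.0452 SE, edgeR adjusted p = 0.000342) and Pes1 (0.29 ± 0.0312 SE, edgeR adjusted p = 4.18e-05). Mybbp1a, Npm1 and Nhp2 followed at 0.23, 0.17 and 0.15, and Ubtf, the other member on that chromosome, was at -0.00. All genes of chromosome 11 had a median of 0.21 in this comparison, with 541 higher and 19 lower.

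Off chromosomes X, 11 and 14, 6 of 33 members were lower and 3 higher. Rrp1b was the lowest at -0.24 ± 0.0306 (SE; edgeR adjusted p = 0.000144), with every Taf6l-KO library below every Taf5l-KO library, and Tcof1 followed at -0.23 ± 0.0330 (SE; edgeR adjusted p = 0.000306). Gar1 (-0.21), Ncl (-0.15), Nolc1 (-0.13), Bop1 (-0.11) and, on X, Dkc1 (-0.10) were lower too, while Nop58 (0.14), Polr1c (0.12) and Nip7 (0.11) were higher. Only the calls of Pes1, Utp18, Mybbp1a and Tcof1 held under all 18 alternative settings. With library totals 2 members were lower and 14 higher, and without Taf5l-KO replicate 2 or any one Taf6l-KO library 3 or 4 were lower.

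**Figure D4:**
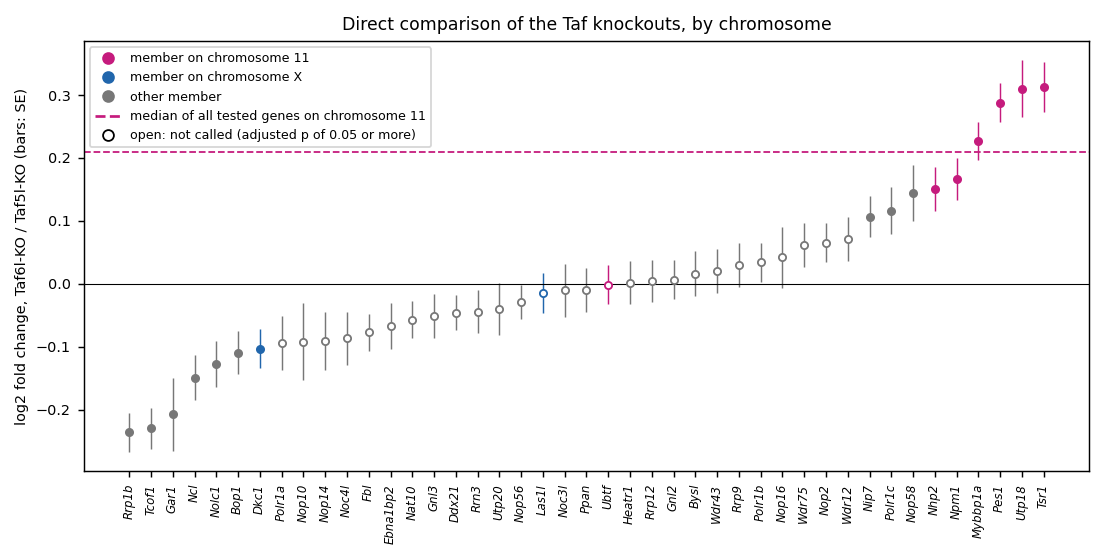
Log2 fold change of Taf6l-KO over Taf5l-KO for the 43 members in order of value, with standard errors; colour marks chromosomes 11 and X, open points were not called, and the dashed line is the median of all tested genes on chromosome 11, at 0.21. The 6 highest members lie on chromosome 11, and the seventh member there, Ubtf, lies at -0.00.

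MYC with its partner MAX binds the E-box CACGTG, so the start regions of the members were read from RefSeq (GRCm38.p6), as windows of 250 bases before to 50 after each start; 37 of the 43 members matched an entry. CACGTG, which reads the same on both strands, occurred in 8 of the 37 (21.6%), in 11.9% of the 10094 tested genes that matched and in 7.15% of all windows of this length. The 9 occurrences are shown with their flanks, 5′ to 3′ on the strand of the gene, since they are the places where a MYC motif and a measured member coincide; capitals mark the E-box and Rrn3 has 2.
Mybbp1a (chr11:72441355-72441376, plus strand): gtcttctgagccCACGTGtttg
Nop2 (chr6:125131811-125131840, plus strand): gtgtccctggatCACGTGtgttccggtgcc
Pes1 (chr11:3963965-3963994, plus strand): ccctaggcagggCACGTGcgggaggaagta
Rrn3 (chr16:13780472-13780501, plus strand): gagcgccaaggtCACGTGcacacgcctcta
Rrn3 (chr16:13780639-13780668, plus strand): ttacgctctgctCACGTGggccgcgtcccg
Tsr1 (chr11:74898092-74898121, plus strand): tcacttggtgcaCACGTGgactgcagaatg
Utp18 (chr11:93885769-93885798, minus strand): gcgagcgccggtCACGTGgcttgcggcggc
Utp20 (chr10:88826765-88826789, minus strand): cggcactaactaCACGTGaggaaaa
Wdr43 (chr17:71616220-71616249, plus strand): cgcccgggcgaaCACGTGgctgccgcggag
The E-box of Pes1 begins 3 bases after the annotated start, that of Utp18 20 bases before it, and those of Rrn3 48 and 215 bases before it.

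Of the 8 members with an E-box, Pes1 (-0.59), Tsr1 (-0.31) and Utp20 (-0.25) fell in Myc-KO and none rose, and Mybbp1a (-0.05), Nop2 (-0.01), Rrn3 (-0.17), Utp18 (0.03) and Wdr43 (-0.15) were not called. Of the 29 without it, 9 fell and 1 rose. In Taf6l-KO 5 of the 8 rose and 2 fell, against 2 and 17 of the 29. Mybbp1a, Pes1, Tsr1 and Utp18, the 4 of the 8 that lie on chromosome 11, are among the 5 that rose. In Taf5l-KO 4 of the 8 fell and 1 rose, against 10 and 1 of the 29. Over all genes tested, 15.9% fell and 17.4% rose in Taf5l-KO, 18.2% and 19.1% in Taf6l-KO and 19.5% and 15.2% in Myc-KO. A letter match is a description and not a bound site.

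Ddx21, Nhp2 and Heatr1, which with Pes1 had the 4 largest changes in Myc-KO, had no CACGTG in their windows. Their 250 bases before the start are given for comparison, with capitals on CCGGAAG, an ETS-type motif searched on both strands.
Ddx21 (chr10:62602299-62602548, minus strand): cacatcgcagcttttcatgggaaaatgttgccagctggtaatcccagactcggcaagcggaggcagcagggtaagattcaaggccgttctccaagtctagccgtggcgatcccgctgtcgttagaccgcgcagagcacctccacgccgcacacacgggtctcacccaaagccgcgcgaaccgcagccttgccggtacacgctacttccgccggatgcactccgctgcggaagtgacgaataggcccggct
Nhp2 (chr11:51619523-51619772, plus strand): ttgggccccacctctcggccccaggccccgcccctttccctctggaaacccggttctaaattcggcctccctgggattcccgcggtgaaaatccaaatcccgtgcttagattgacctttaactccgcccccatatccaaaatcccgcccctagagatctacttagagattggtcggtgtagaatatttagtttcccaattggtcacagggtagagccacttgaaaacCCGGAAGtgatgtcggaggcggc
Heatr1 (chr13:12395125-12395374, plus strand): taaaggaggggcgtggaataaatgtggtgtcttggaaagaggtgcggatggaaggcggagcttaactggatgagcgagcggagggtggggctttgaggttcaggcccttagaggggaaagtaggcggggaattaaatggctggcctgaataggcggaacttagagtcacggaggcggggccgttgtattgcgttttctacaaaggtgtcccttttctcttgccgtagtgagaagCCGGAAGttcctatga
CCGGAAG was present in the windows of 14 of the 37 members (37.8%) and in 18.5% of tested genes. Members with CCGGAAG numbered 4 lower and 1 higher of 14 in Myc-KO, and those without it 8 lower and 0 higher of 23. The TATA motif TATAAA, also searched on both strands, was found in 3 of the 37 (8.11%) and in 8.88% of tested genes.

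Whether the Taf knockouts and the Myc knockout affected a member differently was tested as the mean log2 fold change of both Taf knockouts minus that of Myc-KO, over all 15 libraries. Of 43 members 10 (23.3%) had a higher and 8 (18.6%) a lower value for the Taf knockouts, beside 16.9% and 18.4% of 16286 genes. The share with a lower value was thus near that of all genes. Off chromosomes X, 11 and 14, 6 of 33 members (18.2%) were higher and 5 (15.2%) lower, also near the shares of all genes. On chromosome 11, 4 of 7 members were higher, beside 26.4% of all genes tested there. The 2 members on X were lower, beside 28.55% of X-linked genes. Ddx21 differed most, at 0.87 ± 0.0492 (SE; edgeR adjusted p = 2.60e-09), then Pes1 at 0.68 ± 0.0563 (SE; edgeR adjusted p = 1.93e-07). The wild types also differed in level for both genes. Ddx21 was at 343 CPM in WT-Taf and 630 in WT-Myc, beside 317 in Taf5l-KO, 307 in Taf6l-KO and 303 in Myc-KO. Pes1 was at 191 CPM in WT-Taf, 362 in WT-Myc and 241 in Myc-KO. For Heatr1 the wild types were closer, at 483 and 460 CPM, with Myc-KO at 330. CPM were scaled within each experiment, and the part of the wild-type levels in these differences was not tested. Pes1, Utp20 (0.43), Bysl (0.39), Npm1 (0.38) and Tsr1 (0.26) were called higher in at least 1 Taf knockout and lower in Myc-KO, and Tsr1 was also called lower in Taf5l-KO. Heatr1 (0.36), Nhp2 (0.28), Nop16 (0.23) and Polr1a (0.21) make up the rest of the 10.

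On the other side were the X-linked Dkc1 (-0.37 ± 0.0496 SE, edgeR adjusted p = 2.92e-05) and Las1l (-0.33), and the H/ACA protein Gar1 (-0.37 ± 0.0826 SE, edgeR adjusted p = 0.00221). Nop14 (-0.25), Ubtf (-0.25), Gnl2 (-0.22), Ebna1bp2 (-0.21) and Nop56 (-0.14) were also lower for the Taf knockouts. Gnl2, a GTPase of 60S precursors, was called in none of the single knockouts. By class, 40S members had 4 higher and 1 lower of 12 and snoRNP members 1 higher and 3 lower of 7. Without Myc-KO replicate 3 there were 12 higher and 12 lower members, all 18 original calls among them, with 0.92 for Ddx21 and -0.33 for Dkc1. The unbalanced deviation between the Myc groups described above applies to that fit as well. The experiments were separate, so a difference between them in how cells or libraries were made cannot be told apart from the difference in effects.

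**Figure D5:**
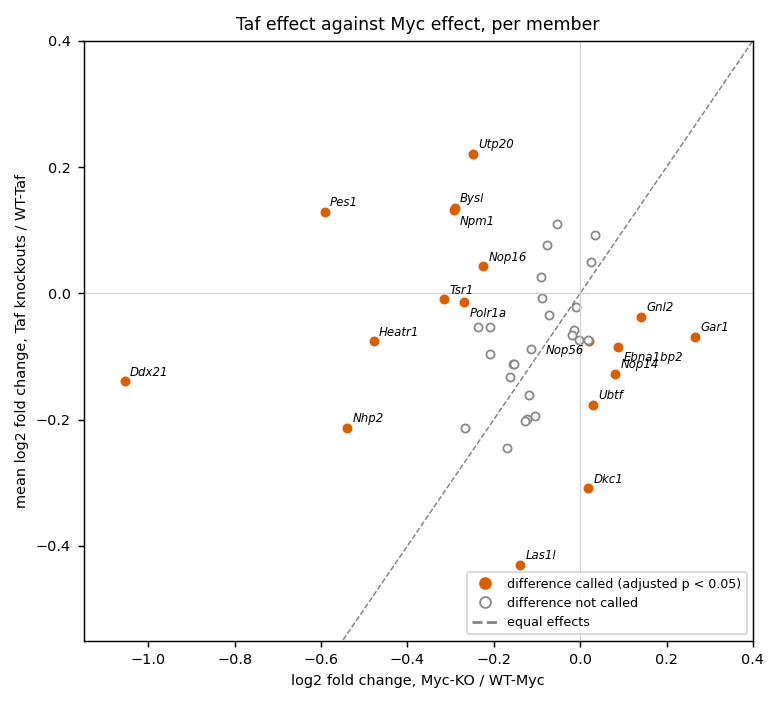
Mean log2 fold change of the Taf knockouts (vertical) against the log2 fold change of Myc-KO (horizontal) for the 43 members; filled points differ between the experiments at an adjusted p under 0.05, and the dashed line marks equal effects. Ddx21 and Pes1 lie far to the left of the line and Dkc1 and Las1l below it.

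Of the members called in each knockout, 10 of 18 in Taf5l-KO, 9 of 29 in Taf6l-KO and 8 of 16 in Myc-KO stayed called under every alternative setting run, the FPKM settings included. In Taf5l-KO these were Ddx21, Dkc1, Las1l, Nhp2, Nip7, Rrn3, Ubtf and Wdr75 among the falls and Tcof1 and Utp20 among the rises. In Taf6l-KO they were Bop1, Ddx21, Dkc1, Las1l, Rrn3 and Ubtf, which fell, and Mybbp1a, Npm1 and Pes1, which rose. In Myc-KO they were Bysl, Ddx21, Heatr1, Nhp2, Pes1, Polr1a, Tsr1 and Utp20, all of which fell. The Taf knockouts share their wild type, so a member that moved in both is not counted as repeated evidence.

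Another 82 ribosome biogenesis genes, listed from general knowledge of the pathway but with earlier results of these data known, were read from the same fits. In Taf5l-KO 38 fell and 4 rose (median -0.09), in Taf6l-KO 24 fell and 10 rose (-0.05), and in Myc-KO 19 fell and 8 rose (-0.04). As shares of the list these are 46.3% lower and 4.88% higher in Taf5l-KO, 29.3% and 12.2% in Taf6l-KO and 23.2% and 9.76% in Myc-KO. Over all genes tested the shares lower and higher were 15.9% and 17.4%, 18.2% and 19.1%, and 19.5% and 15.2%, so that the share lower in Myc-KO was near that of all genes. Ddx24, a DEAD-box helicase of the 60S path, was at 74.8 ± 0.665 CPM (SD, n = 3) in Taf5l-KO, 84.3 ± 1.11 in Taf6l-KO and 117 ± 1.43 in WT-Taf, log2 fold changes of -0.64 and -0.47. It was at 95.3 ± 2.81 CPM in Myc-KO and 178 ± 3.36 in WT-Myc, at -0.90, and was the largest fall of this list there. Ddx56, another helicase, was at -0.79 in Myc-KO, and this gene of chromosome 11 was lower in Taf5l-KO (-0.19) and higher in Taf6l-KO (0.12).

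Senp3, a protease that removes SUMO from 60S factors, fell in Taf5l-KO (-0.49) and Taf6l-KO (-0.33) and was not called in Myc-KO (0.04). Polr1h, a small subunit of RNA polymerase I listed under its older symbol Znrd1, fell in Taf5l-KO (-0.35) and in Taf6l-KO (-0.50). Among the rises, Rrp15 was called in Taf5l-KO (0.18), Taf6l-KO (0.15) and Myc-KO (0.26), and Nsa2 in Taf5l-KO (0.12). Znhit3 (0.32) and the kinase Riok2 (0.27) had the largest rises in Taf6l-KO, and Rcl1 (0.55) and Riok2 (0.52) in Myc-KO. In the direct comparison 15 of the 82 were higher and 4 lower in Taf6l-KO than in Taf5l-KO (18.3% and 4.88%, beside 8.55% and 10.1% of all genes). All 9 of the 82 that lie on chromosome 11 were among the higher, and off that chromosome 6 of 73 were higher and 4 lower.

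As a share of all counts, the 43 members made up 1.31% ± 0.0339 (SD, n = 3) in Taf5l-KO, 1.41% ± 0.0240 in Taf6l-KO and 1.35% ± 0.0167 in WT-Taf. The lowest Taf6l-KO library, at 1.38%, lay above the highest WT-Taf library, at 1.36%, and the Taf5l-KO libraries (1.29% to 1.35%) overlapped the wild type. The shares were 1.74% ± 0.0648 in Myc-KO and 1.91% ± 0.0223 in WT-Myc, and the highest Myc-KO library, replicate 3 at 1.82%, was below the lowest WT-Myc library at 1.89%. The class of nucleolar proteins with several roles, which includes Npm1 and Ncl, held 0.636% to 1.09% of all counts by itself. In Taf6l-KO this class held 0.696% to 0.720%, against 0.636% to 0.661% in WT-Taf. The 40S class held 0.233% to 0.237% against 0.223% to 0.228%. The snoRNP and 60S classes overlapped the wild type. The RNA polymerase I class was lower in Taf6l-KO, at 0.137% to 0.141% against 0.145% to 0.146%. The higher share in Taf6l-KO was thus not common to all classes. No test was made on these shares.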

How the data were processed

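RNA of J1 cells was measured in 15 libraries, made from ribosomal RNA-depleted total RNA with a directional kit, per the labels' protocols. Salmon 0.8.2, DESeq2 1.14.1 and the build mm9 are named in the submitters' processing notes without a role for each; the gene models are not given in the sources used here. Whole-number estimated counts, deposited by the authors, were tested as they stand. The authors' FPKM values served only for alternatives. The FPKM of a gene imply lengths from 37.5 bases (Nop56) to 8350 (Utp20), so levels are not compared between genes. The authors' normalized counts and TPM were not used here.

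Libraries were grouped by title. Where a symbol had several rows, the most abundant was used. The test was edgeR 4.0.16 in R 4.3.3 (TMM, filterByExpr, glmQLFit, glmQLFTest; Benjamini-Hochberg over all genes that passed the filter; threshold 0.05). The 9 Taf libraries and the 6 Myc libraries were fitted separately, and the difference of effects over all 15. Biological coefficients of variation were 4.23%, 10.2% and 7.23%. The SE is the log2 fold change divided by the root of the F statistic. Levels are CPM with TMM factors. Every pair of replicates differed beyond sampling noise (lowest chi-square per degree of freedom 2.68, highest 36.4), so none was counted as a repeat deposit.

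Members and gene lists were chosen with earlier results of these data known. Values in every library are given for, in each class and knockout, the called members with the largest changes (up to 2 per direction), for Ncl, Npm1 and Fbl, and for members on chromosomes X, 11 and 14; of the other pathway genes, up to 2 per direction and knockout are named. The chromosome of a gene was known for 87.4% of genes. Of 83 other pathway genes 82 had a row, 9 by an older symbol. As alternatives served DESeq2 1.42.0, RLE scaling, library totals, no filter, a replicate block, each library left out, members of chromosomes X, 11 and 14 left out, limma-trend (limma 3.58.1) on log2(FPKM + 1) and log2(FPKM + 0.1) where the mean FPKM reached 0.5, all 15 libraries in 1 fit, and only the groups compared. Simulated counts in which 200 genes were changed served to test the procedure: in the Taf5l-KO simulation 11 of 160 calls were unchanged genes, in Taf6l-KO 12 of 162, in Myc-KO 20 of 121. Figures were drawn with Python 3.11.15.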

Additional observations from a re-analysis of the deposited data

Results flagged for a closer look

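Members are given here where the effects of 2 knockouts or experiments differed by a test of the difference itself (edgeR's quasi-likelihood test, adjusted p under 0.05 over all genes tested). The mean log2 fold change of the Taf knockouts exceeded that of Myc-KO for Ddx21 by 0.87, Pes1 by 0.68, Utp20 by 0.43, Bysl by 0.39, Npm1 by 0.38, Heatr1 by 0.36, Nhp2 by 0.28, Tsr1 by 0.26, Nop16 by 0.23 and Polr1a by 0.21. The difference was -0.37 for Gar1, -0.37 for Dkc1, -0.33 for Las1l, -0.25 for Nop14, -0.25 for Ubtf, -0.22 for Gnl2, -0.21 for Ebna1bp2 and -0.14 for Nop56. Of these 18 calls, 14 held under all 22 alternative settings, while those of Ebna1bp2, Nop14, Nop56 and Polr1a did not. As shares of the members, 23.3% were higher and 18.6% lower, beside 16.9% and 18.4% of all genes tested. Off chromosomes X, 11 and 14 the shares of the members were 18.2% higher and 15.2% lower. The wild types of the experiments also differed in level for some of these members, such as Ddx21 and Pes1.

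Between the Taf knockouts, Taf6l-KO was higher than Taf5l-KO by log2 values of 0.31 for Tsr1, 0.31 for Utp18, 0.29 for Pes1, 0.23 for Mybbp1a, 0.17 for Npm1, 0.15 for Nhp2, 0.14 for Nop58, 0.12 for Polr1c and 0.11 for Nip7. It stood at -0.24 for Rrp1b, -0.23 for Tcof1, -0.21 for Gar1, -0.15 for Ncl, -0.13 for Nolc1, -0.11 for Bop1 and -0.10 for Dkc1. The 6 highest of these are the chromosome 11 members named in the report, where 541 of 1300 tested genes were higher in Taf6l-KO. As shares of the members, 20.9% were higher and 16.3% lower, beside 8.55% and 10.1% of all genes tested. Off chromosomes X, 11 and 14, 9.09% of the members were higher, near the share of all genes, and 18.2% lower.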

How the results depend on the processing

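No called member reversed its direction under any alternative setting. Numbers of members lower or higher that moved by more than 1.5 times are given here. In Taf6l-KO (21 lower, 8 higher) library totals left 8 lower, a single fit of all 15 libraries 13, and both FPKM settings 12 lower and 3 higher; without chromosomes X, 11 and 14, 3 of 33 were higher. In Myc-KO (15 lower, 1 higher) the FPKM settings gave 9 lower, and 2 were higher with RLE scaling, library totals, DESeq2 and log2(FPKM + 1), and 3 in the fit of all libraries. In Taf6l-KO against Taf5l-KO (7 lower, 9 higher) library totals gave 2 and 14, the FPKM settings and the fit of all libraries 2 and 4, the fit of the 2 groups alone 4 lower, and leaving out the chromosomes 3 higher. For the difference between the Taf and Myc knockouts (8 lower, 10 higher) the FPKM settings gave 5 lower, and leaving out the chromosomes 5 lower and 6 higher. The cause was not tested, except that leaving out chromosomes counts fewer members.

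Leaving out each library in turn gave 12 to 17 lower and 3 higher in Taf5l-KO, 14 to 23 lower and 6 to 8 higher in Taf6l-KO, 9 to 20 lower and 0 to 2 higher in Myc-KO, 3 to 7 lower and 6 to 9 higher between the Taf knockouts, and 7 to 12 lower and 9 to 12 higher for the difference between experiments. Where 2 libraries remain in a group, the fit assumes that they vary like the other groups.

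Replicate numbers did not pair the samples: deviations of same-numbered libraries correlated by -0.0766 to 0.0915 in the Taf experiment and by -0.351, -0.161 and -0.571 in the Myc experiment. There, differently numbered libraries correlated positively in some pairs: Myc-KO replicates 1 and 2 with WT-Myc replicate 3 (0.472 and 0.431), and Myc-KO replicate 3 with WT-Myc replicates 1 and 2 (0.411 and 0.194). With the replicate block 16 members were lower and 3 higher in Taf5l-KO, 20 and 8 in Taf6l-KO, 8 and 0 in Myc-KO, 7 and 9 between the Taf knockouts and 7 and 10 for the difference between experiments.

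Every member was above the low-count filter, and no other depth was tried. Simulated 1.1-fold changes were recovered in 14% of genes for Taf5l-KO, 10% for Taf6l-KO and 0% for Myc-KO, and 1.5-fold changes in 100%, 100% and 92%. A member that was not called may therefore have changed by less. With only 200 genes changed, far fewer than were called in the data, these percentages can be too low for the data.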
